A study of Mus musculus with 8 samples.

Results

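YTHDF3 peaks in last coding exons are the peaks of the RIP-seq lists whose center falls in coding sequence of the last exon of a transcript. They were chosen by the deposited annotation, from the entries in which the exon number equals the number of exons of the transcript, and no measured value entered the choice. The 4 lists held 4594 such peaks among 87940. Normal MEFs had 1063 and 1021 of them in replicates 1 and 2, and starved MEFs had 1293 and 1217. Of the 4594 peaks, 497 lay on single-exon transcripts, where the last exon is also the first. The peaks belonged to 1807 genes, and 4566 of them (99.4%) had their center in coding sequence of the last exon in the RefSeq models of the same assembly.

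RIP-seq recovers the RNA that is bound to a protein, here with an antibody to endogenous YTHDF3. The cells were wild-type C57BL/6 mouse embryonic fibroblasts (MEFs), isolated 13.5 days post-coitum and used at 5 to 6 passages. They were kept in complete medium or for 2 h in nutrient-deprived medium, with 2 replicates of each, and polyA RNA of each IP was set against an input library. The labels do not say whether the replicates were separate cultures, so the p-values below measure the spread between these samples, which may be technical.

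YTHDF3 is a cytoplasmic reader of N6-methyladenosine (m6A), a mark that the METTL3 and METTL14 methyltransferase complex places on adenosine, often in the sequence GGAC. m6A is known for its abundance in long exons and near stop codons. The last exon carries the stop codon in most mRNAs, and it has no exon junction downstream. It is often long in genes with few exons, such as those of transcription factors and receptors.

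A peak was taken as a target when its IP/input fold was at least 2 and its p was under 0.0001. By these thresholds 4543 of the 4594 peaks were targets (1056, 1007, 1273 and 1207 in the 4 lists), which was 4.59% to 6.08% of the targets of a list. Reads outside called peaks are not in the lists, and the depth of the libraries is therefore not known. Of 12 fibroblast markers, 6 had a target (Col1a2, Col3a1, Fn1, Pdgfra, Pdgfrb and Prrx1), 3 of them in all 4 lists, while Col1a1, Vim, Thy1, Dcn, Twist1 and S100a4 had none. None of the leukocyte, epithelial or pluripotency markers had a target. A gene without a peak may still be expressed, since the lists hold IP-enriched sequence only. Of the 3 endothelial markers, Kdr had a target in all 4 lists, and Pecam1 and Cdh5 had none.

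The sequences under the peaks with the most IP reads are shown because these regions held the most IP reads per kb among the genes named by rule. Each is the 100 bases around the center of the peak with the most IP reads, lies within coding sequence and is written 5′ to 3′ on the transcribed strand of mm10, with GGAC in capitals. The positions are Prss23 at chr7:89510181-89510280, Plec at chr15:76176436-76176535, F2r at chr13:95603831-95603930, Flrt2 at chr12:95779631-95779730, Lrrc32 at chr7:98499866-98499965, Chst2 at chr9:95406001-95406100, Thbd at chr2:148406556-148406655, Zfp703 at chr8:26979771-26979870, Ier5 at chr1:155098566-155098665, Irf2bpl at chr12:86883016-86883115. Flrt2, Lrrc32 and Zfp703 are on the plus strand and the others on the minus strand. The peaks are much longer than the windows. That of Prss23 spans chr7:89509351-89511110 and that of Plec chr15:76170831-76182140. A window is the middle of a long peak and not a mapped binding site. GGAC occurred in 5 of these 10 windows.
Prss23: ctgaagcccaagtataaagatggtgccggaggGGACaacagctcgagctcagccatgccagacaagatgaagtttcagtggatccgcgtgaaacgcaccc
Plec: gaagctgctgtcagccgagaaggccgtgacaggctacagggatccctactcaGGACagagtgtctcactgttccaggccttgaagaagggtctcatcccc
F2r: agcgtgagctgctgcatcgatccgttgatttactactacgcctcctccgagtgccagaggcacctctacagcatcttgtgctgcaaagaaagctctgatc
Flrt2: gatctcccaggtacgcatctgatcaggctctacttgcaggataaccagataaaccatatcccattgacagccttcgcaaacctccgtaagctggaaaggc
Lrrc32: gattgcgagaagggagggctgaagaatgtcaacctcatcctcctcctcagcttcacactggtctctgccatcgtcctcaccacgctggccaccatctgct
Chst2: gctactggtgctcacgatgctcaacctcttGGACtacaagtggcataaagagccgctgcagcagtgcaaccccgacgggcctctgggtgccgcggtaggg
Thbd: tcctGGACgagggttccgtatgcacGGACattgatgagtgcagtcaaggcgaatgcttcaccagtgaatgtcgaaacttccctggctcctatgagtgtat
Zfp703: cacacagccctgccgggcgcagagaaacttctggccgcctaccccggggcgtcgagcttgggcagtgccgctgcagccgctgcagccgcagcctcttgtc
Ier5: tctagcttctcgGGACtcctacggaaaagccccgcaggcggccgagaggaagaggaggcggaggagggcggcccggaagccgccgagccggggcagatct
Irf2bpl: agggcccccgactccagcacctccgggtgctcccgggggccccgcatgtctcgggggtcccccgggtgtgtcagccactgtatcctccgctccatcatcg

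These genes have different roles. Prss23 is a secreted serine protease, and its window lay 519 nt before the stop codon. Plec encodes plectin, which links intermediate filaments to membranes and other filaments, and its last exon carries 6216 nt of coding sequence. F2r (thrombin receptor), Lrrc32 (which tethers latent TGF-beta at the cell surface), Flrt2 (a leucine-rich repeat membrane protein) and Thbd (thrombomodulin) are cell-surface proteins. Chst2 is a sulfotransferase of the Golgi apparatus. Zfp703 and Irf2bpl are nuclear regulators, and Ier5 is an immediate early gene.

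Genes with such peaks had longer coding sequence in the last exon. The 6922 genes that had any target and a RefSeq model carried a median of 175 nt of coding sequence in the last exon, against 657 nt in the 1789 genes with a last coding exon target. Of 3671 genes with 1 nt to under 200 nt, 7.79% had a last coding exon target in at least 1 list and 0.109% in all 4 lists. Of 707 genes with 500 nt to under 1000 nt, 60.8% had one in at least 1 list and 11.2% in all 4 lists. Of 168 genes with 2000 nt or more, these shares were 91.7% and 48.8%. A longer exon offers more positions for a peak center, and this was not separated from other properties of long exons.

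**Figure D1:**
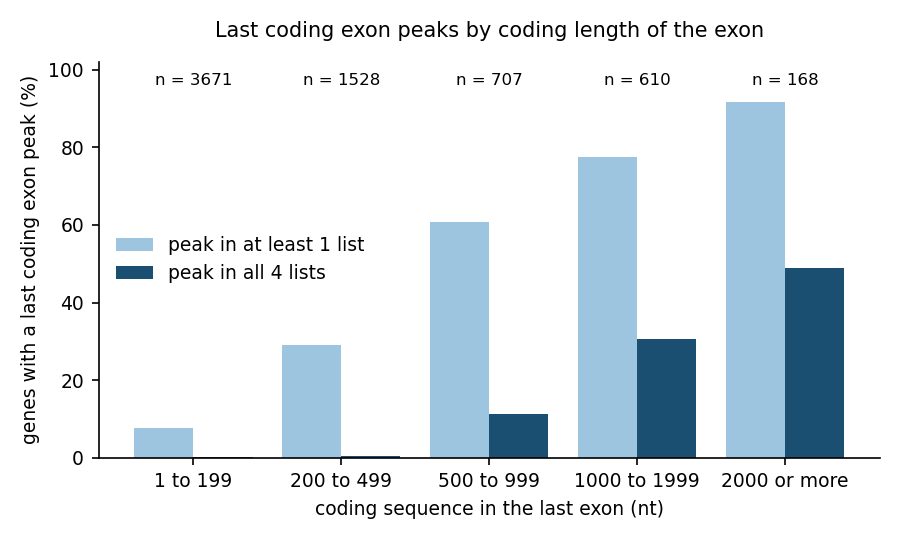
Share of genes with a last coding exon target (y axis, %) against the coding sequence in the last exon (x axis, nt), for genes with any target. Light bars are genes with such a target in at least 1 list and dark bars those with one in all 4 lists, and the dark bars go from 0.109% to 48.8%.

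Peak centers lay along the whole coding part of the last exon. The median distance from peak center to stop codon was 421.5 nt ± 20.4 (SD, n = 4 lists), with 422, 447, 420 and 397 nt in normal replicates 1 and 2 and starved replicates 1 and 2. Centers within 200 nt of the stop codon made up 30.9% ± 2.19 (SD, n = 4). If a center were equally likely at every coding base of its own exon, 30.0% ± 1.48 (SD, n = 4) would lie there. Weighted by length, so that long exons count more, the last 200 nt made up 14.5% ± 0.91 (SD, n = 4) of the coding sequence of these exons. The median center was 0.54 of the way through the coding part of the exon. In the median distance, normal replicate 1 and starved replicate 1 lay 2 nt apart, less than either pair of replicates.

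Peaks were broad in relation to these exons. Their median length was 480 bp ± 44.0 (SD, n = 4), against a median coding length of 1101 nt ± 34.3 in the last exons that held them. The stop codon lay inside 48.2% ± 3.58 of the peaks, so reads of the adjacent 3′ UTR are counted in part of them. The shares per list were 45.5%, 47.3%, 46.6% and 53.5%, with starved replicate 2, which had the longest peaks, at the top.

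**Figure D2:**
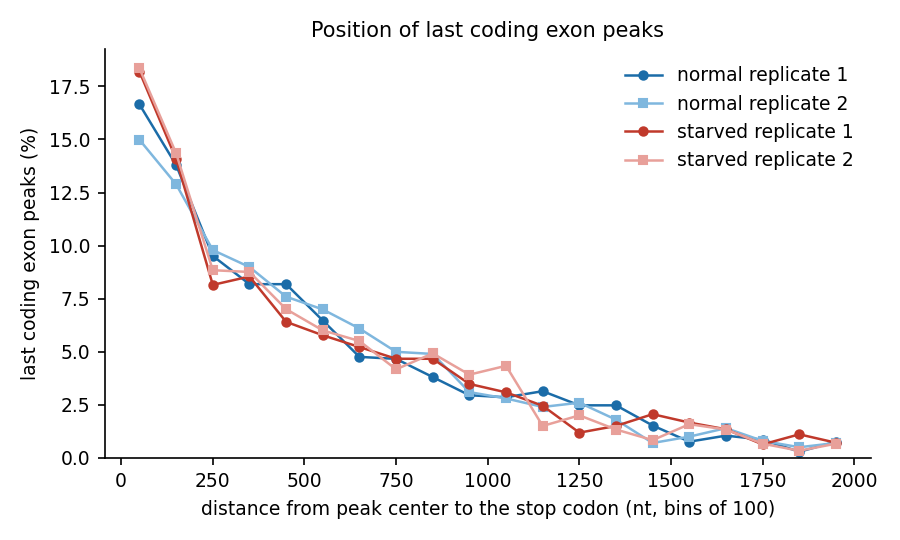
Share of last coding exon peaks (y axis, %) by distance from the peak center to the stop codon (x axis, bins of 100 nt up to 2000 nt), with 1 line per list. The first 100 nt hold the highest share in all 4 lists, and on average 30.9% of the centers lie within 200 nt.

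Last coding exon peaks had a higher median enrichment than internal coding exon peaks in each list. Their median IP/input fold was 3.16, 3.04, 3.12 and 3.16 in normal replicates 1 and 2 and starved replicates 1 and 2. Internal coding exon peaks had medians of 2.79, 2.81, 2.77 and 2.88, below the last coding exon peaks in each of the 4 lists. On the log2 scale the difference was 0.15 ± 0.03 (SD, n = 4 lists), with an exact sign-flip permutation p of 0.12, two-sided, the smallest p that 4 lists can give. Adjusted over the 12 class comparisons made, p was 0.136. The difference was 0.07 at a fold of at least 4, 0.10 at p under 1e-06, 0.09 without floored peaks and 0.08 with at least 50 IP reads, where the exact permutation p was 0.25. Where the input held 3 reads or fewer, 3 reads were used in their place, so that such folds are lower bounds. This applied to 15.3% of last coding exon peaks and to 7.01% of internal coding exon peaks.

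The difference was smaller against long internal exons. Peaks in internal coding exons of at least 500 nt, a class added after the first values were seen, had median folds of 2.99, 3.04, 2.96 and 3.13. Last coding exon peaks were higher by 0.04 ± 0.04 on the log2 scale (SD, n = 4, exact permutation p = 0.12), and in normal replicate 2 the difference was 0.00016. Against 3′ UTR peaks the log2 difference was -0.01 ± 0.05 (SD, n = 4, exact permutation p = 0.75). It was negative in both normal lists and positive in both starved lists, with -0.06, -0.02, 0.00 and 0.05. Peaks on single-exon transcripts had a median fold of 3.34 ± 0.10 (SD, n = 4) and those on transcripts with more exons 3.09 ± 0.08.

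GGAC was more frequent under last coding exon peaks than under 3′ UTR peaks. It occurred on the transcribed strand in 63.5% ± 1.98 (SD, n = 4) of windows of 200 bp at the centers of last coding exon peaks, with 65.6%, 60.9%, 63.0% and 64.3% per list. Internal coding exon peaks had 60.7% ± 1.84, 3′ UTR peaks 50.3% ± 2.14 and all targets 57.7% ± 1.35. Internal coding exons of at least 500 nt, the class added after the first values were seen, had 68.4%, 64.6%, 64.2% and 67.3%, which was above last coding exon peaks in each of the 4 lists. The differences from all internal coding exon peaks and from 3′ UTR peaks had the same sign in 4 of 4 lists, by 2.73 and 13.1 percentage points, each with an exact sign-flip permutation p of 0.12, two-sided. The GC content of the windows moved in the same order as these 3 shares, with medians of 56.0%, 53.2% and 49.2%. In internal coding exons of at least 500 nt the median was 55.9%, not above last coding exon peaks, although their GGAC share was higher. The part of GC content in the differences was not tested. GTCC, the reverse complement of GGAC with the same base composition, occurred in 53.7% ± 1.07 of last coding exon windows and 52.3% ± 1.84 of 3′ UTR windows.

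Within the same exons, GGAC was denser under the peaks than outside them. In normal replicate 1 it occurred 5.51 times per kb of covered coding sequence and 4.71 times per kb of the uncovered coding sequence of the same last exons. The values were 5.24 and 4.53 in normal replicate 2, 5.45 and 4.25 in starved replicate 1, and 5.44 and 4.22 in starved replicate 2. Covered sequence was thus higher in 4 of 4 lists (exact sign-flip permutation p = 0.12, two-sided). Covered sequence was also richer in GC, with 55.6% to 57.0% against 51.9% to 53.1%, and the part of GC in the difference was not tested. Peaks covered 63.9% to 70.3% of the coding bases of these exons.

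**Figure D3:**
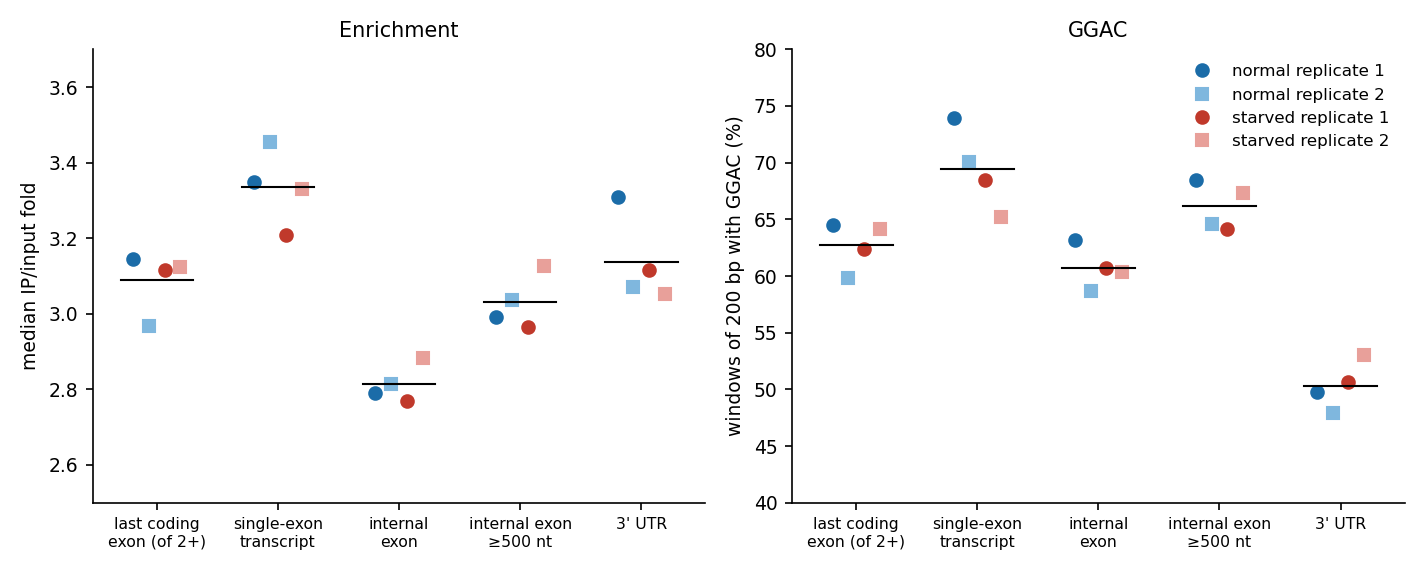
Median IP/input fold (left, y axis from 2.5) and share of 200 bp windows with GGAC (right, y axis from 40%) for 5 classes of target peaks, with 1 point per list and a line at the mean of the 4 lists. Single-exon transcripts have a mean fold of 3.34 and internal exons 2.81, and the 3′ UTR class has the lowest GGAC share, at 50.3%.

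Last coding exon peaks recurred across lists. Of those in 1 list, 57.7% to 75.9% overlapped a target of another list, against 44.3% to 68.5% for all targets. For internal coding exon peaks the range was 43.8% to 77.0%, so the recurrence was not particular to last coding exon peaks. Merging peaks that shared 1 bp or more gave 39979 regions, of which 2110 had a last coding exon peak in at least 1 list. Of these 2110 regions, 724 (34.3%) were called in all 4 lists, against 16.3% of all regions. A region called in more lists has more peaks that can place it among the 2110, so these shares are not like for like. A last coding exon peak in each of the 4 lists was present in 348 regions of 344 genes, 53 of them on single-exon transcripts. In these 348 regions 97.8% of IP reads lay in last coding exon peaks.

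Reads in the 348 regions spanned several orders of magnitude. IP reads per kb had a median of 351, 452, 553 and 564 in normal replicates 1 and 2 and starved replicates 1 and 2, with a range of 54.5 to 43836. The Prss23 region had 51567, 46495, 77152 and 53209 IP reads and 13386, 19672, 10002 and 12577 input reads, a mean of 32845 IP reads per kb. Its IP/input fold was 3.11, 2.36, 3.31 and 2.82. The medians of this fold over the 348 regions were 3.19, 2.99, 3.08 and 3.18, which lay between the lowest and highest fold of Prss23 in the 4 lists.

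The single-exon genes with the most IP reads were Fzd7, Irf2bpl, Rbm15b and Thbd. Fzd7, a Frizzled receptor for Wnt ligands, had folds of 3.75, 4.52, 3.62 and 4.70. Rbm15b, a component of the m6A methyltransferase complex, had folds of 3.37, 4.37, 3.26 and 4.61. Both were higher in replicate 2 than in replicate 1 in either condition, and their ranges overlapped between normal and starved MEFs. Rbm15b and Virma were the members of the m6A gene list with a last coding exon target, of 12 with any target.

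Some gene families whose coding sequence ends in a long exon had such peaks more often than all genes. C2H2 zinc finger genes were listed by a pattern in the gene symbol. The pattern also took in Zfp36, so the list is not limited to the C2H2 type. Of 233 genes of this list with any target, 149 (63.9%) had a last coding exon target and 38 (16.3%) had one in all 4 lists. Over all 6925 genes with a target these shares were 25.9% and 4.97%. The zinc finger genes carried a median of 1265 nt of coding sequence in the last exon, against 175 nt over all genes. Of 8 Frizzled receptors with a target, 7 had a last coding exon target and Fzd7, Fzd1, Fzd5, Fzd8 and Fzd4 had one in all 4 lists, with a median coding length of 1716 nt.

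BTB-Kelch genes, which encode substrate adaptors of cullin ubiquitin ligases, had 15 of 27 genes with a last coding exon target and 6 with one in all 4 lists, Klhl9, Klhl26, Klhl25, Klhl11 and Kbtbd7 among them. Sox and Fox transcription factors had 18 of 30, with Foxc1 and Foxn2 in all 4 lists. Core Wnt regulators had 8 of 14, with Znrf3, Bcl9 and Frat2 in all 4 lists. Immediate early genes, which respond to serum and growth factors, had 10 of 22, with Ier5, Jun, Junb, Egr2 and Fosb in all 4 lists. Sprouty, DUSP and related ERK feedback genes had 8 of 15, with Spry1 and Spry2 in all 4 lists.

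Other lists lay near or below the 25.9% of all genes. Hox genes had 8 of 26 (30.8%), Hippo pathway genes 4 of 14 (28.6%), TGF-beta and BMP genes 5 of 19 (26.3%) and Klf and Sp factors 4 of 17 (23.5%), and of these Fat4, an atypical cadherin of the Hippo list, was in all 4 lists. Insulin and FOXO genes had 3 of 20 (Trib1, Trib2 and Trib3). Collagen and matrix genes had 3 of 44, with Col8a1, a short-chain collagen, in all 4 lists, and ribosomal protein genes 0 of 6. The median coding length of the last exon was 147 nt for the collagen and matrix list and 76 nt for ribosomal protein genes.

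The autophagy genes named by the study had 7 of 11 members with a target, and 2 of them, Zfyve1 and Zfyve26, had a last coding exon target, each in 1 list. Zfyve1 marks the membrane from which autophagosomes form, and its peak in normal replicate 2 had 170 IP reads and 82 input reads, a fold of 2.07, with its center 72 nt before the stop codon. Zfyve26, a protein of lysosome reformation, had 170 IP reads and 25 input reads in starved replicate 1, a fold of 2.91. With the RefSeq models, the center of this peak was not placed in coding sequence of the last exon. A peak called in 1 of 4 lists gives no comparison between normal and starved MEFs.

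Reads of the 348 regions were compared between starved and normal MEFs among the 6531 regions called in all 4 lists. A region that lost its peak under 1 condition is not among them. With edgeR's quasi-likelihood test and Benjamini-Hochberg adjustment over the 6531 regions, 0 of the 348 had changed IP reads at adjusted p under 0.05 (0% of all regions in either direction). For input reads the count was also 0 (0% in either direction). At an unadjusted p under 0.05, 22 regions were higher and 27 lower in IP reads, where 4.36% and 4.04% of all regions were. For input reads these were 27 and 30 regions, with 4.13% and 3.58% over all regions.

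DESeq2 called more. It gave 4 higher and 15 lower regions in IP reads at adjusted p under 0.05 (0.949% and 1.32% of all regions), and 3 higher and 15 lower in input reads (0.903% and 1.16%). In its input fit 255 of the 6531 regions had no adjusted p. The reads of a region are summed over sequence that was called separately in each list, so they also move with the length that was called. With the covered length of each region in each library as an offset in edgeR, IP reads were called higher in 0 and lower in 8 regions (0.0919% and 0.75% of all regions). Input reads were called higher in 2 and lower in 11 (0.23% and 0.995%). All 8 regions called in IP reads were called in input reads too, and all 13 were also called by DESeq2 in input reads.

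The genes of these 13 regions were named after their values were seen. In edgeR without covered length none of them was called when all 6531 regions were tested. With at least 20 IP and 20 input reads in each library, Jun, Nuak2 and Kctd11 were called in input reads (edgeR adjusted p = 0.026, 0.047 and 0.041). Levels are given as reads per covered kb scaled to CPM by the TMM-adjusted total in the 6531 regions, in normal replicates 1 and 2 and then starved replicates 1 and 2. Changes are log2 values of starved over normal MEFs with their SE and adjusted p from the edgeR fit with covered length. Since RNA was taken from whole cultures, fewer expressing cells and less RNA per cell cannot be told apart.

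Jun, a subunit of the AP-1 transcription factor, had IP levels of 874, 829, 126 and 145. Its input levels were 899.7, 860.1, 125 and 148, so both starved libraries lay far below both normal ones. The IP reads fell by 2.65 on the log2 scale (SE 0.20, edgeR adjusted p = 0.0063) and the input reads fell by 2.69 (SE 0.25, edgeR adjusted p = 0.00016). Without covered length the edgeR adjusted p for Jun was 0.10 in IP reads and 0.079 in input reads. Over covered lengths of 2400 to 2680 bp, the IP/input fold was 2.79, 2.77, 2.74 and 3.06.

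Other immediate early genes were lower as well. Egr2, a zinc finger transcription factor, had 1571, 2797, 77 and 159 IP reads over 2480, 2410, 680 and 880 bp. Its IP level fell by 3.25 on the log2 scale (SE 0.32, edgeR adjusted p = 0.016), or by 4.86 without covered length (edgeR adjusted p = 0.21), and its input reads were 354, 704, 1 and 27. Fosb, another AP-1 subunit, had IP levels of 44.0, 78.2, 14.4 and 11.7, and these fell by 2.23 (SE 0.33, edgeR adjusted p = 0.037), or by 3.24 without covered length (edgeR adjusted p = 0.30). Csrnp1, a nuclear protein outside the list of immediate early genes, was called in input reads, with a log2 change of -2.01 (SE 0.29, edgeR adjusted p = 0.0032). Of the 5 immediate early genes with a region in all 4 lists, 3 were called lower in IP reads with covered length and 0 higher. In the same fit 0.75% of all regions were called lower and 0.0919% higher. Ier5 and Junb were not called, with log2 changes of IP reads of -0.96 (SE 0.22) and -0.48 (SE 0.28).

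Both Sprouty genes, which encode inhibitors of ERK signaling, were called lower in input reads. Spry2 had IP levels of 530.0, 384, 32.0 and 75.3 and input levels of 594, 482, 33.6 and 84.3. It was called in IP reads too, which fell by 3.09 on the log2 scale (SE 0.43, edgeR adjusted p = 0.029). Spry1 had input levels of 409, 228, 57.0 and 94.2, which fell by 2.07 (SE 0.35, edgeR adjusted p = 0.010), while its IP reads had an adjusted p of 0.075 in the same edgeR fit. In both genes the input levels of the normal and starved libraries did not overlap. Both were named for their lower calls, so this separation adds no support.

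Signaling and receptor genes made up the rest of the lower group. Nuak2, a kinase related to AMPK, had IP levels of 169.9, 113, 19.9 and 23.2, a log2 change of -2.71 (SE 0.27, edgeR adjusted p = 0.016). Kctd11, an adaptor of cullin ubiquitin ligases, had 353, 289.5, 90.5 and 84.9, a log2 change of -1.87 (SE 0.21, edgeR adjusted p = 0.019). Htr2a, a serotonin receptor, had 107, 105, 26.6 and 30.9, and Arl4c, a small GTPase, had 324, 274, 116 and 124. Their log2 changes were -1.89 (SE 0.22, edgeR adjusted p = 0.021) and -1.31 (SE 0.21, edgeR adjusted p = 0.048). S1pr1, a receptor for sphingosine-1-phosphate, was called in input reads, with levels of 224, 199.4, 79.5 and 81.9.

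Gas1 and Frat2 were called higher in input reads. Gas1, a membrane protein first described in growth-arrested cells, had input levels of 86.8, 59.7, 272 and 157 and a log2 change of 1.55 (SE 0.33, edgeR adjusted p = 0.038). Its IP levels were 111, 88.4, 299 and 228, with an adjusted p of 0.055 in the edgeR fit. Frat2, which binds GSK3, had 2, 2, 27 and 68 input reads, so that its normal input is at or below the floor of 3 reads.

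**Figure D4:**
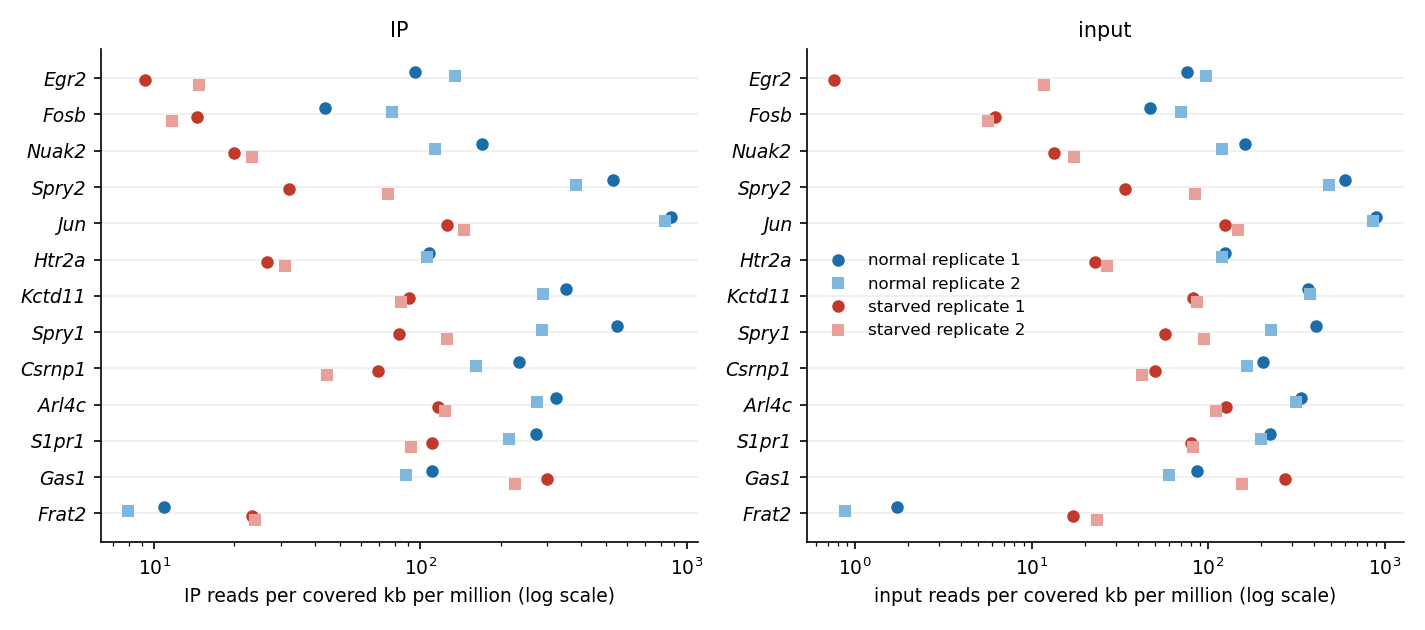
IP (left) and input (right) reads per covered kb in CPM, on log axes, for the 13 regions called in either measure with covered length as an offset. Each point is 1 library, blue for normal and red for starved MEFs. In the 11 lower regions both starved points lie to the left of both normal points. These regions were chosen by their calls, so this separation adds no support.

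The median change over the 348 regions was 0.03 on the log2 scale in IP reads and 0.05 in input reads, against 0.01 and 0.01 over the 6531 regions. With covered length as an offset the medians were -0.12 and -0.10, against -0.10 and -0.08. Some genes of long last exons lay above these medians without a call. Zfp703 had IP levels of 411, 321, 754 and 565 (log2 change 0.85, SE 0.23, edgeR adjusted p = 0.24). Zfp503 had 245, 181, 521 and 404 (1.12, SE 0.24, edgeR adjusted p = 0.145). Among the 38 zinc finger regions, 6 were higher and 1 lower in IP reads at an unadjusted p under 0.05, without the offset, and 0 at an adjusted p. Over all 6531 regions 4.36% were higher and 4.04% lower by this threshold, and over the 348 regions 22 and 27 were.

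The Frizzled receptors went both ways. Fzd1 had IP levels of 164, 113, 229.9 and 187, and Fzd5 had 100.3, 99.8, 44.3 and 45.6. With covered length as an offset neither was called, with edgeR adjusted p of 0.51 and 0.055. DESeq2 called Fzd5 lower in IP reads at an adjusted p of 0.039. Fzd7, Fzd8 and Fzd4 had log2 changes of IP reads of -0.30, -0.21 and -0.37 with SEs of 0.19, 0.27 and 0.26.

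**Figure D5:**
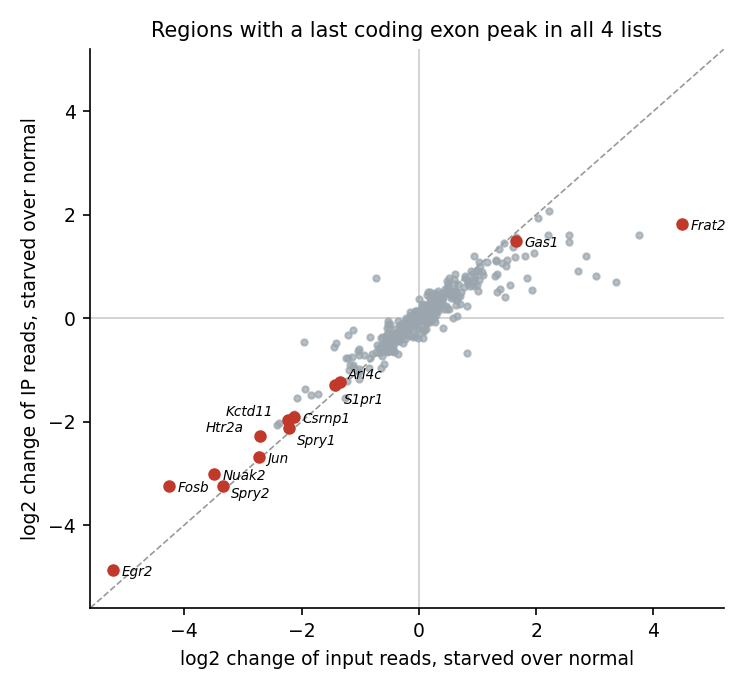
Log2 change of IP reads (y axis) against log2 change of input reads (x axis), starved over normal MEFs, for the 348 regions in the edgeR fit without covered length. Red points are the 13 regions named for their calls, the dashed line marks equal change, and 11 of the 13 lie at the lower left.

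The IP/input ratio sets the change of IP reads against that of input reads. None of the 348 regions was called by edgeR at adjusted p under 0.05, where 1 of 6531 regions was higher (0.0153%) and none was lower (0%). DESeq2 gave the same counts, 0 of the 348 and 0.0153% and 0% of all. At an unadjusted p under 0.05, 5 regions were higher and 13 lower, where 1.26% and 1.55% of all regions were. The median log2 change of the ratio was -0.02 over the 348 regions and -0.02 over the 6531. For Jun the change was 0.03 (SE 0.17) and for Spry2 it was 0.11 (SE 0.19).

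The 4 regions with a lower ratio and the smallest p each held fewer than 20 input reads in at least 1 library. Frat2 had 45, 52, 231 and 325 IP reads, and its ratio fell by 2.74 on the log2 scale (SE 0.60, edgeR adjusted p = 0.52), with 2 input reads in each normal library. Tspyl5 had 3, 6, 16 and 49 input reads and Mmp28 had 9, 0, 43 and 18, with ratio changes of -1.66 (SE 0.49) and -1.80 (SE 0.61). Leaving out a library moved the Mmp28 change to -7.47 without normal replicate 1, when the remaining normal input was 0 reads, -1.25 without normal replicate 2, -1.19 without starved replicate 1 and -2.18 without starved replicate 2. Fignl2, with a change of -1.12 (SE 0.42), had 28, 4, 68 and 23 input reads, and its change was -2.35, -0.71, -0.66 and -1.39 without each library in the same order. Among those with a higher ratio, Fosb had a change of 1.06 (SE 0.30), Tent5a 0.85 (SE 0.34), Kcnf1 0.88 (SE 0.39) and Cmtr2 0.60 (SE 0.26), each with an edgeR adjusted p of 0.999. Cmtr2 had 150, 291, 24 and 88 input reads, Fosb 188, 574, 10 and 26, Tent5a 21, 90, 29 and 12 and Kcnf1 28, 33, 13 and 12.

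By a cutoff of 1.8-fold in the IP/input fold of the best peak, in the same direction in both replicates, 3 of the 348 regions were higher in starved MEFs and 5 were lower. Over all 6531 regions these shares were 0.367% and 0.352%. The higher regions were those of Egr2, Kcnf1 and Tigd5, and the lower ones those of Zbtb42, Fignl2, Frat2, Sema6c and Trim62. With reads summed over the region in place of the best peak, 0 of the 3 higher and 3 of the 5 lower regions (Fignl2, Frat2 and Sema6c) passed the same cutoff. The folds of Egr2 in starved replicate 1 and of Frat2 in both normal replicates are lower bounds, with 1, 2 and 2 input reads. This count has no test. With 2 replicates per condition, an exact permutation test of 1 region could not give a p below 0.333.

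Some regions were called under 1 condition. Of the 2110 regions with a last coding exon peak, 65 (3.08%) had one in both starved lists and were called in neither normal list. Another 15 (0.711%) had one in both normal lists and were called in neither starved list. Over all 39979 regions, with peaks of any class, calls in both lists of only 1 condition numbered 1880 (4.70%, starved) and 518 (1.296%, normal). A further 110 regions called in any 2 lists had a last coding exon peak in only 1 of them. The 65 and 15 leave these out, so the shares are not like for like. The calls in starved lists included Sertad4, with 1019 and 1100 IP reads, and Slc25a37, with 619 and 771. The calls in normal lists included Zfp213, with 126 and 98 IP reads. IP reads in the 6531 regions were 12059939 and 11645382 in starved MEFs and 6930058 and 8818659 in normal MEFs, and the part of this in the counts was not tested.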

How the data were processed

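RIP-seq of YTHDF3 was analysed in normal and starved MEFs, with 2 replicates each. The authors used Trimmomatic for trimming and TopHat2 2.0.13 for alignment to mm10, called each IP against input with diffReps and annotated peaks with HOMER, per the labels and the study's methods. They deposited IP and input values per peak, a signal that is reads multiplied by 1 factor per library (counts in normal replicate 2, whose factor is 1). The authors also deposited the log2 ratio of IP to input, which was not used, and p-values of each peak, which set the targets. The step between values gave each factor, and division by it returned whole reads (100% within 0.05). The lists do not name their input libraries, so that of the same condition and number was assumed.

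Positions, coding lengths and sequences came from RefSeq GRCm38.p6, the mm10 assembly, by the annotated transcript. GGAC was searched on the transcribed strand with overlaps allowed. Reads were tested with edgeR 4.0.16 (glmQLFit with default settings) in R 4.3.3 with TMM normalization, and with DESeq2 1.42.0 as an alternative. The ratio was fitted with 1 term per culture. The edgeR fits were tested on simulated data, those with covered length at a constant length only. DESeq2 and covered lengths that differ between libraries were not tested in this way. The members and the 16 gene lists were chosen with earlier results of these data known. Genes were named for IP reads per kb, for the smallest p, as the 5 list members with the most IP reads, or as single-exon genes; the rule on adjusted p named none, and other genes were named after seeing their values. Up to 10 windows were printed from these. Alternatives covered thresholds, single-exon transcripts, floors, normalization, filters, covered length, a replicate block and leaving out each replicate. Other steps ran in Python 3.11.15 (scipy 1.17.1, pysam 0.24.0, pandas 2.3.3, numpy 2.4.6). Library depth was not used here, so counts of reads refer to called peaks.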

Additional observations from a re-analysis of the deposited data

How the results depend on the processing

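The count of target peaks went from 4543 to 1520 at a fold of at least 4, and regions with a peak in all 4 lists from 348 to 34. Of regions called in all 4 lists, 724 had a last coding exon peak in at least 1 list, and the shared regions numbered 151 with 50% reciprocal overlap. The median distance to the stop codon was 469 nt at a fold of at least 4, 445 nt at p under 1e-06, 386 nt (385.5 nt) without single-exon transcripts and 369 nt for peaks of at most 500 bp. The GGAC share was 60.8% at a fold of at least 4 and 41.2% in windows of 100 bp, and GGACT occurred in 22.8%. The fold difference from 3′ UTR peaks turned positive at p under 1e-06 (0.014), without floored peaks (0.023) and with at least 50 IP reads (0.029), and lay between -0.026 and 0.012 when a replicate was left out, positive without normal replicate 1. Regions changed 1.8-fold numbered 8, and 4 without single-exon transcripts, 14 with a last coding exon peak in at least 1 list, 6 on reads summed over the region, 19 at a cutoff of 1.5, 5 at a cutoff of 2 and 0 with reciprocal overlap.

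Regions with changed IP reads numbered 0, and 19 by DESeq2 and 8 with covered length; changed input reads 0, and 18 by DESeq2, 13 with covered length and 3 with at least 20 IP and 20 input reads. Upper-quartile normalization, and fits chosen after seeing the data (robust, bias-adjusted), gave 0, as did leaving out each replicate. With covered length, leaving out a replicate gave 14 (without starved replicate 1) to 29 (without normal replicate 2) regions in IP reads, and 22 without either normal replicate 1 or starved replicate 2. In input reads it gave 12 to 22, with 22 without normal replicate 1, 21 without normal replicate 2 and 20 without starved replicate 2. The replicate numbers are shared by label alone: replicate differences correlated between conditions with r = 0.46 in IP reads, 0.28 in input reads and 0.27 in the ratio across regions. A replicate block gave 0 regions in IP reads, input reads and the ratio, and with covered length, chosen after seeing the data, 33 in IP reads and 42 in input reads, including all 8 and all 13. The cause of these moves was not tested. Alternative values for single genes were set against the edgeR fit without covered length, in which none was called. Of 349 such values, 283 kept the direction and stayed uncalled, 66 were called in the same direction and none changed sign. Leaving out a replicate leaves 1 sample in a group, which is assumed to vary like the other group. Some of the folds are lower bounds, since 15.3% of last coding exon targets had 3 input reads or fewer.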
